A study of Homo sapiens with 24 samples.

Results

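The transcripts described here are those of the collagens, the laminins, the integrins and 5 further matrix genes (FN1, NID1, NID2, HSPG2 and AGRN), chosen by gene symbol among the protein-coding genes of GENCODE release 44. They are 87 of 20046 protein-coding genes, made up of 44 collagens, 12 laminins, 26 integrins and the 5 others. N6-methyladenosine (m6A) was mapped by immunoprecipitation of RNA fragments with an m6A antibody and sequencing (m6A-seq), and a peak is a stretch of transcript with more immunoprecipitated (IP) reads than input reads. The 6 peak lists held 228472 peaks, of which 968 named at least 1 of these genes.

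All cells came from the MEL1 INSGFP/W line, human embryonic stem cells that carry a GFP reporter at the insulin gene. In the first batch, hPSC (undifferentiated cells kept on CF1 mouse feeder cells), DE (definitive endoderm, made with activin A and CHIR99021), PP (pancreatic progenitors, made with KGF, then retinoic acid, LDN-193189, GDC-0449 and vitamin C, then EGF) and hILO (islet-like organoids, aggregates kept with zinc sulfate, heparin, 616452, T3 and vitamin C, with LDN-193189 and compound E at first and then N-acetyl cysteine and trolox in their place) were profiled from poly(A)-selected RNA with a SYSY antibody. In the second batch, WT PP, unmutated cells taken to the same stage as PP, and A5-KO PP, made in the same way from hPSC whose ALKBH5 gene was mutated with Cpf1 in its first exon and grown from picked colonies, were profiled from total RNA with a Millipore antibody and another library kit. Each population had 2 IP and 2 input libraries, but 1 peak list with pooled reads. Values of single libraries were not analysed here, so no spread between libraries is given and no test between populations was made. Batch 2 differed from batch 1 in RNA, antibody and kit, so counts of all 6 lists are given side by side and sharing and enrichment in A5-KO PP were set against WT PP.

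Collagens are trimers wound into a triple helix whose repeat is glycine followed by a pair of other residues, and their genes are split into many short exons. Laminins are cross-shaped trimers of an alpha, a beta and a gamma chain that build the basement membrane together with type IV collagen, nidogen, perlecan (HSPG2) and agrin. Integrins are alpha and beta chain pairs that bind these proteins at the cell surface, and in the developing pancreas they hold epithelial progenitors on their basement membrane. m6A is placed on the adenosine of DRACH motifs (D stands for A, G or U, R for A or G, H for A, C or U), of which GGAC is the core most often bound. It is known for its place in long internal exons and around stop codons, and ALKBH5 is an enzyme that removes it.

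A check of the lists came before the results. The peaks carry numbered names that follow gene identifier and position, and in all 6 lists the order of the coordinates kept to the order of the names only in long runs, which held 14430 (39.4%), 12145 (37.2%), 4148 (14.3%), 3469 (11.01%), 3948 (9.12%) and 4502 (8.15%) of the peaks of hPSC, DE, PP, hILO, WT PP and A5-KO PP. Identical peaks of hPSC and DE had input reads that ranked alike inside these runs (Spearman's rho 0.859 over 920 peaks) and much less so outside them (rho 0.218 over 1850 peaks). For that reason positions, presence, sharing and sequence are described for all peaks, while read counts and enrichment are given only for the 173 matrix and integrin peaks inside the runs. hPSC held 69 of them, DE 54, PP 3, hILO 2, WT PP 17 and A5-KO PP 28. A check on base composition did not part the rows inside the runs from those outside, and its values are given at the end. Numbers that no row used made up 0.136% to 10.5% of a list, and whether they stand for peaks that failed the authors' filter was not tested. Stage markers followed the labels in part: PDX1 and NKX6-1, which define pancreatic progenitors, had peaks in PP, hILO, WT PP and A5-KO PP and none in hPSC or DE, NANOG had peaks only in hPSC and DE, and the endoderm gene SOX17 had 0, 3, 0, 0, 3 and 2. Insulin (INS), glucagon (GCG) and somatostatin (SST) had peaks only in hILO, and SOX2 had none in any list. Where a group of 6 values follows without names, it is in the order hPSC, DE, PP, hILO, WT PP and A5-KO PP. Other markers looked at were less clear-cut. LIN28A had 1, 1, 1, 1, 0 and 0 peaks, and DPPA4 5, 3, 1, 0, 6 and 4. SOX9 had 2, 0, 2, 1, 2 and 3, and MNX1 0, 3, 4, 4, 4 and 5. PTF1A had 0, 0, 0, 0, 1 and 1. CHGA had 2, 1, 3, 1, 3 and 2, and NEUROD1 0, 0, 1, 4, 0 and 4. CXCR4 had 1, 4, 3, 1, 2 and 2, and CER1 2, 2, 0, 0, 2 and 1. POU5F1, like NANOG, had peaks only in hPSC and DE, and FOXA2 and GATA6 had them in every list but hPSC.

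GGAC sites in collagen coding sequence are shown first, since many results turn on them. The sites below lie in peaks of the lists named and are written in whole codons, 5′ to 3′ on the transcript strand of GRCh38, with GGAC in capitals. In the first group GGA is itself a glycine codon, and these sites were chosen because they lay in peaks of several lists or in the multi-exon peaks of PP and hILO.
COL4A3, chr2:227263905-227263943, plus strand, hPSC, DE, PP and hILO: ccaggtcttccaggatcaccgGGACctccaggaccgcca
COL7A1, chr3:48569725-48569760, minus strand, hPSC, DE, PP and hILO: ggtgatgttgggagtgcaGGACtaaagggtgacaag
COL28A1, chr7:7440790-7440819, minus strand, hPSC, hILO, WT PP and A5-KO PP: aggggacttccagggcccgaaGGACcaaag
COL6A2, chr21:46122120-46122158, plus strand, hPSC, DE and PP: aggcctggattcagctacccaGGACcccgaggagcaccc
COL3A1, chr2:188996125-188996169, plus strand, PP and hILO: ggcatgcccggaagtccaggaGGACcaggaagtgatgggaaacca
COL4A5, chrX:108580539-108580583, plus strand, PP and hILO: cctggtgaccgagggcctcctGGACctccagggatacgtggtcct
COL5A2, chr2:189049413-189049454, minus strand, PP and hILO: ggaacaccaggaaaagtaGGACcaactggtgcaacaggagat
In the windows of COL3A1, COL4A5 and COL5A2, 6 of 15, 5 of 15 and 5 of 14 codons began with GG and so coded for glycine.

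The second group holds coding GGAC sites that lay in a peak of all 6 lists (COL2A1, COL5A2, LAMC1) or of 5 (COL27A1, the list without it being hILO). In COL2A1, COL5A2 and COL27A1 GGA is not in the codon frame, in LAMC1 it is, and COL27A1 is shown for its coding exon of 1775 nt, which is long for a collagen.
COL2A1, chr12:47973410-47973457, minus strand: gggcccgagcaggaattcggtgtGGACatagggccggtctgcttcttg
COL5A2, chr2:189035009-189035056, minus strand: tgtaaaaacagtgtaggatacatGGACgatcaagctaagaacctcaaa
COL27A1, chr9:114168909-114168956, plus strand: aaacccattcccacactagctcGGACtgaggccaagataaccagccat
LAMC1, chr1:183135087-183135131, plus strand: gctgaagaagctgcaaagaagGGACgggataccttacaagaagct
Among the coding GGAC sites of collagens that lay in a peak and in such a window, 186 did so in 1 list only, 66 in 2 lists and 3 in all 6.

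The hPSC list had 132 matrix and integrin peaks, DE 110, PP 151, hILO 128, WT PP 156 and A5-KO PP 291. They were 0.360%, 0.337%, 0.519%, 0.406%, 0.360% and 0.527% of their lists. Of these, 2, 1, 1, 1, 2 and 3 peaks (8 of ITGA1, 1 of ITGB3 and 1 of ITGB6) lay on no exon of a matrix or integrin gene in the annotation, only on exons of another gene they named. The counts and their order depended on the limits set on the rows: with a p below 1e-05 they were 89, 79, 96, 119, 90 and 153, and with at least 50 input reads 85, 86, 113, 116, 96 and 142, though outside the runs these values may belong to another peak. Of the 87 genes, hPSC listed at least 1 peak for 50 (57.5%), DE for 45 (51.7%), PP for 48 (55.2%), hILO for 44 (50.6%), WT PP for 51 (58.6%) and A5-KO PP for 74 (85.1%). Over all protein-coding genes the shares were 60.2%, 57.0%, 52.2%, 57.7%, 62.8% and 69.7%. The share of matrix and integrin genes was thus near that of all genes in the first 5 lists and above it in A5-KO PP. By family, the A5-KO PP share was 90.9% (78.8 to 96.4) in collagens and 91.7% (64.6 to 98.5) in laminins. In integrins it was 69.2% (50.0 to 83.5), near that of all genes. A gene without a peak cannot be told from one with too few reads, since the lists hold no expression values for genes without peaks.

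In 26 genes a peak was listed in all 6 populations, 81 genes had one in some population and 6 had none in any (COL20A1, ITGA10, ITGA2B, ITGAD, ITGB4 and ITGB7). The first set was 29.9% of the 87 genes, beside 37.7% of all coding genes, and the last 6.90%, beside 18.2%. The genes with most peaks were COL27A1 (44 over the 6 lists), LAMC1 (36), COL18A1 (34) and COL5A1 (28). COL27A1 encodes a fibril collagen of cartilage, LAMC1 the gamma chain found in most laminins, COL18A1 the basement membrane collagen that releases endostatin, and COL5A1 a chain of the collagen that nucleates fibrils.

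**Figure D1:**
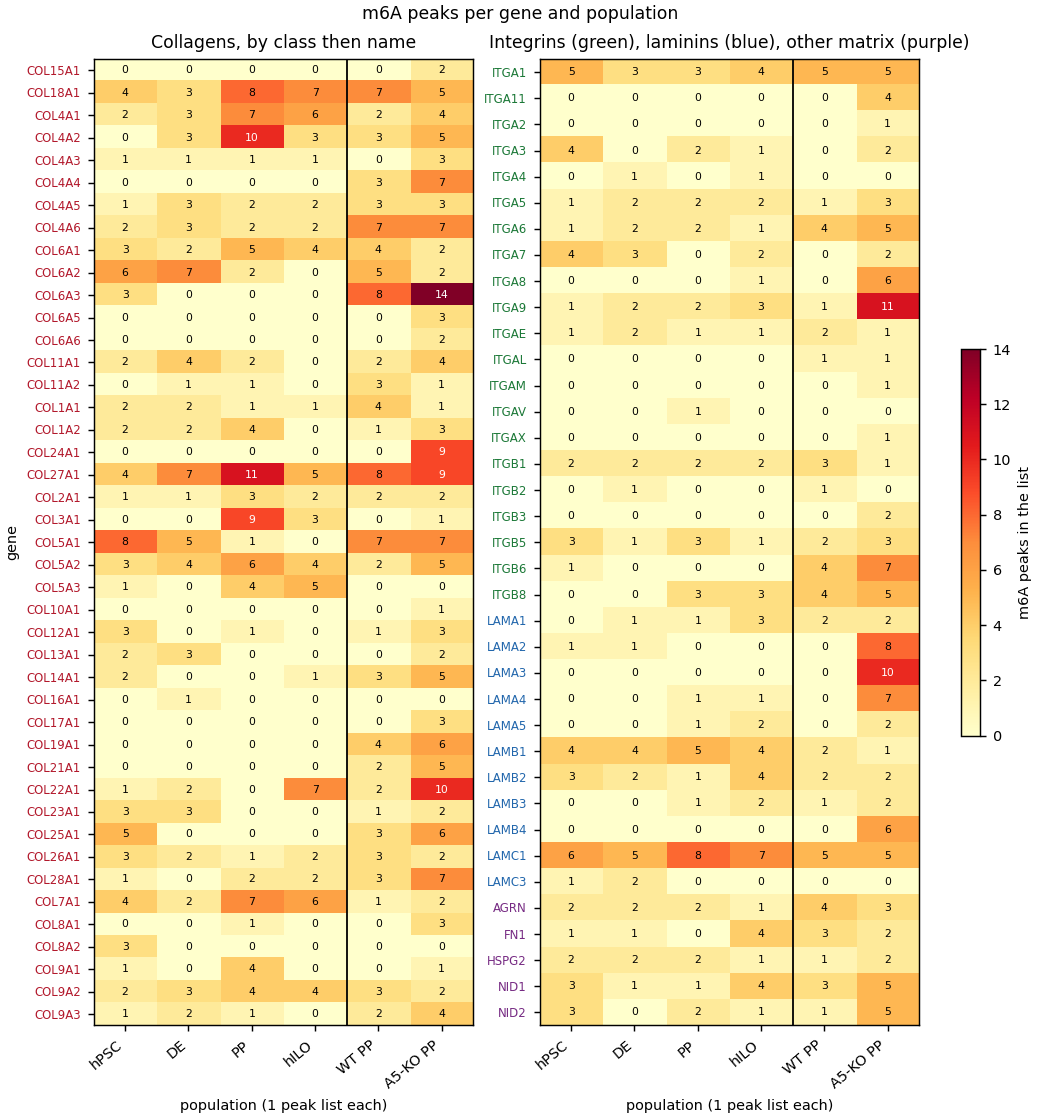
Each cell gives the number of m6A peaks of a gene (rows) in the peak list of a population (columns), for genes with a peak in some list. The line parts the 2 batches. COL3A1 and COL4A2 reach 9 and 10 peaks in PP, and COL24A1, LAMA3 and LAMB4 have peaks only in A5-KO PP.

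Fibril collagens, which build the rope-like fibers of connective tissue, had 23, 26, 42, 20, 29 and 42 peaks over 11 genes. COL3A1, a collagen of skin and vessel walls, had 9 peaks in PP, 3 in hILO and 1 in A5-KO PP, and none in hPSC, DE or WT PP. All 9 PP peaks of COL3A1 lay in the coding sequence, across chr2:188994314-189007501, and every COL3A1 peak of every list also named another gene, so their reads cannot be assigned to COL3A1 alone. COL5A1 had 8, 5, 1, 0, 7 and 7 peaks, the fewest in PP and hILO. COL27A1 had 4, 7, 11, 5, 8 and 9 peaks in hPSC, DE, PP, hILO, WT PP and A5-KO PP. COL5A2, the partner chain of COL5A1, had 3, 4, 6, 4, 2 and 5.

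COL1A1 and COL1A2, the chains of the main collagen of bone and skin, had 2 peaks each in hPSC and 2 each in DE. In PP, hILO, WT PP and A5-KO PP, COL1A1 had 1, 1, 4 and 1 peaks and COL1A2 had 4, 0, 1 and 3. COL2A1, the cartilage collagen, had 1, 1, 3, 2, 2 and 2 peaks in the 6 lists. A 200-nt stretch of the COL1A1 3′UTR, chr17:50185226-50185425, lay in a peak of every list, as did 250 nt of COL2A1 around its stop codon, chr12:47973217-47973466.

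Type IV collagens form the network of the basement membrane. COL4A1 had 2, 3, 7, 6, 2 and 4 peaks. COL4A2, its partner, had 0, 3, 10, 3, 3 and 5. The hPSC and WT PP peaks of COL4A1 all lay in its 3′UTR, whereas 4 of the 7 in PP and 4 of the 6 in hILO spanned exons of the coding sequence. COL18A1 had 4, 3, 8, 7, 7 and 5 peaks. The type VI collagens, which form beaded filaments, differed among themselves: COL6A2 had 6, 7, 2, 0, 5 and 2 peaks, COL6A3 had 3, 0, 0, 0, 8 and 14, and COL6A1 had 3, 2, 5, 4, 4 and 2.

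Over the whole family, 29, 24, 26, 19, 29 and 40 of the 44 collagen genes had a peak, with 76, 69, 100, 67, 99 and 165 peaks.

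Of the 12 laminin chains, 6, 7, 8, 8, 6 and 11 had a peak, with 22, 16, 23, 28, 17 and 48 peaks. LAMC1 had 6, 5, 8, 7, 5 and 5 peaks, LAMB1 4, 4, 5, 4, 2 and 1, and LAMB2 3, 2, 1, 4, 2 and 2, so that the beta and gamma chains shared by many laminins had a peak in every list. The alpha chains, which set the laminin type, were listed less evenly. LAMA1, the alpha chain of the embryonic laminin-111, had 0, 1, 1, 3, 2 and 2. LAMA5 had none in hPSC, DE and WT PP, 1 in PP, 2 in hILO and 2 in A5-KO PP.

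Of the 26 integrin chains, 10, 10, 10, 12, 11 and 18 had a peak, the lowest share of the 3 families in hPSC, DE, PP, WT PP and A5-KO PP. ITGB1, the beta chain of most matrix receptors, had 2, 2, 2, 2, 3 and 1 peaks. Its laminin-binding partner ITGA6 had 1, 2, 2, 1, 4 and 5, and the fibronectin receptor chain ITGA5 had 1, 2, 2, 2, 1 and 3. ITGA3, another laminin receptor chain, had 4, 0, 2, 1, 0 and 2. ITGB5 had 3, 1, 3, 1, 2 and 3. ITGB4, the beta chain of hemidesmosomes, had none in any list. ITGAV, the usual partner of ITGB5, had 1 peak in PP and none elsewhere, and the collagen receptor chain ITGA2 had 1 in A5-KO PP only. ITGB8, which activates latent TGF-beta, had no peak in hPSC or DE and 3, 3, 4 and 5 in PP, hILO, WT PP and A5-KO PP.

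The other matrix genes had a peak in almost every list: AGRN had 2, 2, 2, 1, 4 and 3 peaks, HSPG2 2, 2, 2, 1, 1 and 2, NID1 3, 1, 1, 4, 3 and 5, NID2 3, 0, 2, 1, 1 and 5, and fibronectin (FN1) 1, 1, 0, 4, 3 and 2. FN1 peaks of hPSC, DE and hILO overlapped at chr2:215364886-215364960, while all those of WT PP and A5-KO PP lay within chr2:215371914-215372413.

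**Figure D2:**
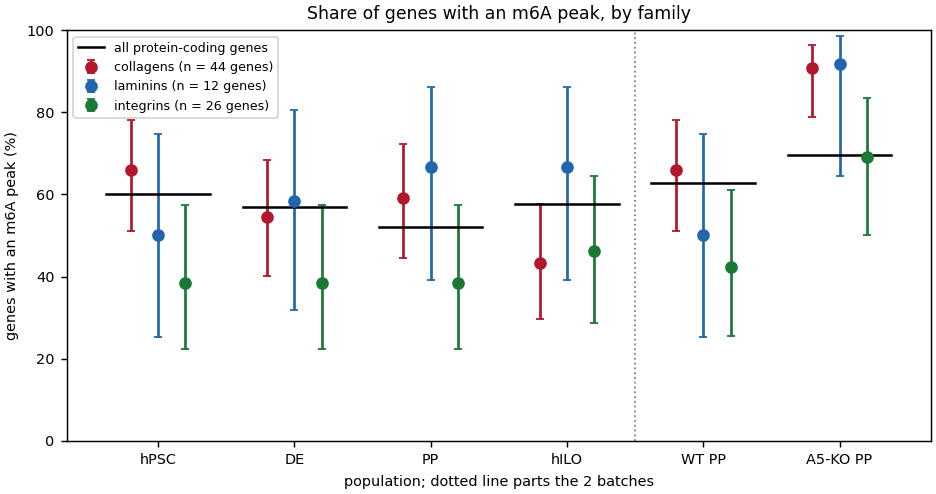
Points give the percentage of the genes of a family with an m6A peak in a population, with Wilson 95% intervals that cover counting only, and black bars give the percentage over all protein-coding genes. Collagens and laminins stand above the bar in A5-KO PP, at 40 of 44 and 11 of 12 genes.

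Between stages, genes came and went in both directions. From hPSC to DE, 6 of the 37 genes without a peak had one (16.2%, beside 13.0% over all coding genes) and 11 of 50 had none any more (22.0%, beside 13.9%). From DE to PP, 13 of 42 gained one (31.0%, beside 14.2%) and 10 of 45 lost it (22.2%, beside 19.2%). The 13 were COL12A1, COL28A1, COL3A1, COL5A3, COL8A1, COL9A1, ITGA3, ITGAV, ITGB8, LAMA4, LAMA5, LAMB3 and NID2. From PP to hILO, 6 of 39 gained one (15.4%, beside 22.5%) and 10 of 48 lost it (20.8%, beside 10.1%), and ITGAV was the only one of these 10 that was not a collagen.

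Genes with a peak in only 1 of the 4 stages were COL25A1, COL6A3, COL8A2 and ITGB6 in hPSC, COL16A1 and ITGB2 in DE, COL8A1 and ITGAV in PP, and ITGA8 in hILO. These sets were 4.60%, 2.30%, 2.30% and 1.15% of the 87 genes, beside 3.39%, 1.89%, 1.12% and 3.62% of all coding genes.

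Sharing was counted for each peak as cover of over 50% of its exonic length, on the same strand, by peaks of another list. Of the 110 matrix and integrin peaks of DE, 58 were shared with hPSC (52.7%, 95% interval 43.5 to 61.8), beside 64.7% of all DE peaks. Of the 151 of PP, 49 were shared with DE (32.5%, 25.5 to 40.3), beside 57.0% of all PP peaks. Of the 128 of hILO, 50 were shared with PP (39.1%, 31.0 to 47.7), beside 45.6% of all hILO peaks. The widest gap to the background was thus at PP, where 27 of 100 collagen peaks (27.0%) and 7 of 23 laminin peaks (30.4%) were shared with DE, beside 11 of 21 integrin peaks (52.4%). With reciprocal cover of over 50%, the share of PP with DE was 21.2%. The intervals cover counting only, peaks of a gene are not independent, and no test between populations stands behind these shares.

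PP and WT PP, the same stage with different RNA, antibody and kit, had 33 of the 156 matrix and integrin peaks of WT PP shared with PP (21.2%, 15.5 to 28.2), beside 22.4% of all WT PP peaks. The other way, 52 of the 151 matrix and integrin peaks of PP were shared with WT PP (34.4%, 27.3 to 42.3), beside 57.9% of all PP peaks. Merged over the lists, the peaks on exons of these genes formed 489 sites, of which 305 were found in 1 list (62.4%) and 19 in all 6 (3.89%). Over all coding genes, 50.6% of 68987 sites merged in the same way were found in 1 list and 11.2% in all 6. The 19 lay on AGRN, COL18A1, COL1A1, COL27A1, COL2A1, COL4A1, COL4A6, COL5A2, COL6A1, COL9A2, HSPG2, ITGA1, ITGA5, ITGA6, ITGA9, LAMB1 and LAMC1, and in most of them the middle of the peaks lay in the 3′UTR. The peaks of the ITGA1 sites also named other genes. The 34 sites found in all 4 stages (6.95%, beside 15.2% over all coding genes) were 18 of collagens, 6 of laminins, 7 of integrins and 3 of other matrix genes.

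Next, the position of the peaks on the longest coding isoform was read from the middle of their exonic length. In hPSC and DE, 44.5% (35.6 to 53.9) and 47.3% (37.3 to 57.4) of the placed matrix and integrin peaks lay in the coding sequence, beside 55.6% and 53.5% of all placed peaks. In PP and hILO the shares were 65.6% (57.2 to 73.2) and 60.0% (50.9 to 68.5), beside 58.7% and 56.5%. In WT PP and A5-KO PP they were 47.2% (38.6 to 55.9) and 67.5% (61.3 to 73.1), beside 51.7% and 58.9%. The background lay above the interval of the matrix and integrin peaks in hPSC and below it in A5-KO PP, and inside it in the other 4 lists.

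Peaks that joined parts of several exons were common in these genes. They made up 29.5%, 37.3%, 53.0%, 51.6%, 28.2% and 49.5% of the matrix and integrin peaks, beside 20.4%, 20.9%, 23.3%, 29.4%, 22.9% and 38.5% of all peaks. Of the collagen peaks, they were 24 of 76 (31.6%), 29 of 69 (42.0%), 65 of 100 (65.0%), 42 of 67 (62.7%), 29 of 99 (29.3%) and 87 of 165 (52.7%). The PP peak of COL27A1 at chr9:114284741-114300398 held parts of 11 exons, and that of COL5A2 at chr2:189056910-189063053 parts of 8.

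Since the collagens have short exons, the share of coding bases inside peaks was set out by exon length, over the genes with a peak in the list. The median coding exon measured 63 nt in collagens, 143 nt in laminins, 115 nt in integrins and 125 nt in other coding genes. In other coding genes, exons of 200 nt or more were covered 5.41, 4.54, 4.33, 2.99, 6.35 and 3.58 times as much as shorter ones in hPSC, DE, PP, hILO, WT PP and A5-KO PP. In collagens the same ratios were 1.60, 1.80, 0.66, 0.18, 5.55 and 1.61. In PP, peaks covered 9.93% of the short-exon bases and 6.54% of the long-exon bases of collagens, and in hILO 10.0% and 1.75%, so that in collagens of these lists short exons were covered more than long ones. In other coding genes the same figures were 5.44% and 23.6% in PP, and 8.51% and 25.4% in hILO.

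This did not come from a single collagen. With each gene left out in turn, the ratio in PP lay between 0.37 (without COL27A1) and 0.76 (without COL3A1), and in hILO between 0.08 (without COL5A2) and 0.23 (without COL18A1). In hPSC it lay between 0.99 (without COL27A1) and 1.99 (without COL6A1) and in DE between 0.75 (without COL27A1) and 2.24 (without COL6A1), so there the side of 1 on which it lay turned on COL27A1, whose long exon was shown above. In PP, short exons were covered in 21 of 26 collagens, to 36.6% of their bases in COL3A1, 34.4% in COL27A1, 42.2% in COL9A1, 25.0% in COL18A1 and 23.0% in COL5A2. In hILO they were covered in 16 of 19, to 30.4% in COL27A1, 26.5% in COL18A1, 23.5% in COL22A1 and 14.0% in COL7A1. WT PP, the same stage as PP in the other protocol, did not share the low ratio, and there RNA selection, antibody and library kit cannot be told apart.

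**Figure D3:**
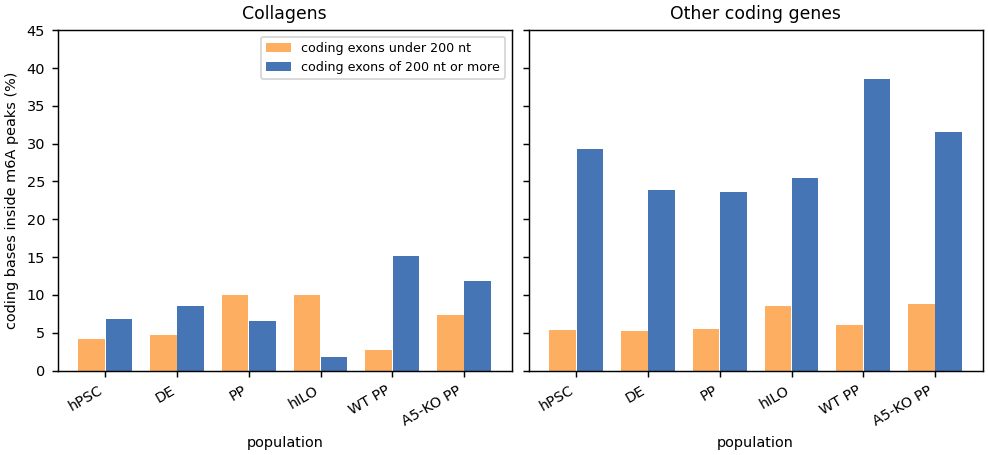
Bars give the percentage of coding bases inside m6A peaks, for coding exons under 200 nt (orange) and longer ones (blue), in collagens (left) and other coding genes (right) with a peak in the list. In collagens the orange bar is the taller one in PP and hILO, and in other coding genes the blue bar is the taller one in every list.

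The GGAC motif was counted per kb of exon inside and outside peaks of the same genes. In matrix and integrin genes GGAC was 1.43, 1.25, 1.46, 1.21, 1.08 and 1.12 times as dense inside peaks as outside in hPSC, DE, PP, hILO, WT PP and A5-KO PP, beside 1.64, 1.55, 1.50, 1.39, 1.47 and 1.42 over all genes. The same letters on the opposite strand gave 0.82, 0.89, 1.01, 0.96, 0.79 and 0.90. Collagen exons were rich in GGAC to begin with, at 6.57 sites per kb outside peaks in hPSC beside 3.32 over all genes. The collagen ratio of GGAC was 1.56, 1.11, 1.31, 1.39, 0.98 and 1.01 over the 6 lists. For DRACH, which holds GGAC where A, C or U follows, it was 1.24, 1.25, 1.09, 1.22, 1.12 and 1.10.

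The codon frame of these sites was read next. Of 2015 GGAC sites in collagen coding sequence, 1452 had GGA as a glycine codon (72.1%, 70.1 to 74.0), beside 20.1% of 166661 sites in other coding genes, 24.3% of 408 in laminins and 19.2% of 480 in integrins. The share was 80.2% in fibril collagens, 77.2% in basement membrane collagens and 41.1% in beaded collagens, whose helix is short. In COL3A1, 50 of 52 GGAC sites were in the glycine frame, and 16 of the 17 inside peaks. Over all 6 lists the share was 271 of 372 sites inside collagen peaks (72.8%, 68.1 to 77.1) and 71.9% of 1643 sites outside, so the share outside lay within the interval of that inside. List by list, inside peaks, hPSC had 62.4% (51.7 to 71.9), DE 60.9% (48.7 to 71.9), PP 73.2%, hILO 79.1%, WT PP 48.5% (36.8 to 60.3) and A5-KO PP 62.5% (54.4 to 70.0), beside 71.6% to 72.9% outside the peaks. The share outside thus lay above the interval in hPSC, DE, WT PP and A5-KO PP.

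WT PP and A5-KO PP were compared to describe the lists of cells with and without ALKBH5. The knockout list was the longer one, with 55219 peaks against 43312, and a peak list cannot check the knockout itself: ALKBH5 itself had 4 and 5 peaks. Of the 36 matrix and integrin genes with no peak in WT PP, 24 had one in A5-KO PP (66.7%, beside 32.1% over all coding genes), and 1 of 51 was lost (2.0%, beside 8.10%), namely ITGB2, the beta chain of leukocyte integrins. The 24 included the laminin alpha chains LAMA2 (8 peaks), LAMA3 (10), LAMA4 (7) and LAMA5 (2), LAMB4 (6), the collagens COL24A1 (9), COL17A1 (3), COL13A1 (2), COL15A1 (2) and COL3A1 (1), and the integrins ITGA8 (6), ITGA11 (4), ITGB3 (2, of which 1 lay on no ITGB3 exon), ITGA3 (2) and ITGA2 (1). For 13 of the 87 genes (14.9%, beside 6.30% of all coding genes) A5-KO PP was the only list of the 6 with a peak: COL10A1, COL15A1, COL17A1, COL24A1, COL6A5, COL6A6, ITGA11, ITGA2, ITGAM, ITGAX, ITGB3, LAMA3 and LAMB4.

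Among the 50 genes with a peak in both lists, 28 had more peaks in A5-KO PP, 9 the same number and 13 fewer (56.0% more, 26.0% fewer), beside 36.8% more and 34.1% fewer of 11568 coding genes. ITGA9, a receptor chain for tenascin and osteopontin, had 1 and 11 peaks, COL22A1 had 2 and 10, and COL6A3 had 8 and 14, whereas COL1A1 had 4 and 1. Of the 291 peaks on the knockout list, WT PP shared 88 (30.2%, 25.2 to 35.7), beside 46.8% of all peaks. Of the 156 WT PP peaks, 82 were shared with A5-KO PP (52.6%, 44.8 to 60.2), beside 50.0%.

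On the newly listed genes A5-KO PP had 82 peaks, of which 60 joined several exons (73.2%, 62.7 to 81.6), and 60 of 67 placed ones lay in the coding sequence (89.6%, 80.0 to 94.9). Over the 2397 coding genes newly listed in A5-KO PP the same shares were 73.1% of 4818 peaks and 80.0% of 3439 placed ones. On the 50 genes with a peak in both lists, the A5-KO PP peaks joined several exons in 84 of 209 cases (40.2%, 33.8 to 47.0) and the WT PP peaks in 43 of 155 (27.7%, 21.3 to 35.3), beside 28.3% and 23.1% over the 11568 coding genes with a peak in both. Where reads could be read, input was scarce in A5-KO PP: 9 of the 28 matrix and integrin peaks in the ordered runs had no input read (32.1%, beside 16.4% of all such peaks), against 0 of 17 in WT PP (beside 7.70%). LAMA4, an alpha chain of vessel and muscle laminin, had all 7 of its A5-KO PP peaks in a run, and 5 of the 7 had no input read and between 22 and 62 IP reads. Without LAMA4, 4 of 21 had none (19.0%), so that gene carried most of the gap to all peaks. With at least 50 input reads, A5-KO PP had 142 matrix and integrin peaks on 63 genes and WT PP 96 on 44, though outside the runs these reads may belong to another peak. The part that missing input played in the longer list was not tested.

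Markers of other cell types were counted in the same lists. All 5 endothelial genes looked at (PECAM1, CDH5, KDR, TEK and VWF) had a peak in A5-KO PP, 16 peaks in all, against 1 of 5 (TEK, 2 peaks) in WT PP, 0 in PP and hILO, and 2 of 5 in hPSC and DE. Of 10 mesenchymal genes, 7 had a peak in A5-KO PP (15 peaks) and 4 in WT PP (6 peaks), and in the 4 stages 4, 5, 4 and 5 had one, so the A5-KO PP count was near the 69.7% of all coding genes in that list. Of 5 neural genes, 2 had a peak in A5-KO PP and 3 in WT PP, and the pluripotent and endoderm lists had the same number of genes with a peak in both, with 4 peaks in A5-KO PP and 6 in WT PP for the former and 8 and 11 for the latter. Their part in the matrix and integrin peaks was not tested. These are counts of peaks and not of RNA or cells. In such bulk samples cell numbers, RNA per cell, methylation and scarce input cannot be told apart.

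Enrichment (log2 of IP over input as deposited) could be compared at peaks that lay in an ordered run in both lists. Between hPSC and DE there were 34 such shared peaks, with a median difference of -0.0036, and 0 were at least 1 higher or lower in DE, beside 1.15% higher and 1.59% lower of 8114 shared peaks of all genes. The errors given below come from counting alone, as values of single libraries were not analysed here. The peaks of a pair overlap but often differ in width, so they do not always cover the same bases. Coordinates of a pair are those of the peak in DE, PP or A5-KO PP. COL6A1 had 2 of these peaks: at its coding peak, chr21:45990395-45999177, enrichment was 1.43 ± 0.02 in hPSC (4478 input and 35654 IP reads) and 1.41 ± 0.01 in DE (22439 and 60675 reads). In COL6A2 5 peaks differed by between -0.12 and 0.15. LAMC1 read 2.49 ± 0.05 in hPSC and 2.18 ± 0.07 in DE in its 3′UTR, and 1.25 ± 0.07 and 1.31 ± 0.12 at the coding peak that holds the LAMC1 sequence shown above. ITGA5 read 2.44 ± 0.10 and 2.47 ± 0.02 in its 3′UTR, and HSPG2 read 2.32 ± 0.10 and 2.16 ± 0.04. Among peaks with 50 or more input reads at both stages, COL26A1 was lowest in DE relative to hPSC, with differences of -0.47 ± 0.18 and -0.38 ± 0.15 at its 3′UTR peaks. A pair of ITGA1 peaks was highest, with 0.44 ± 0.06 each, but their reads nearly coincide and they name other genes too. With the raw ratio and 1 offset for each list the median difference was 0.14.

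NID1, which links laminin to type IV collagen, had the same 3′UTR peak in ordered runs of 3 stages, and it read 1.70 ± 0.16 in hPSC, 1.34 ± 0.18 in DE and 1.08 ± 0.10 in PP. LAMA5, the alpha chain of epithelial basement membranes, had usable 3′UTR peaks of 1.61 ± 0.14 in PP and 1.05 ± 0.11 in hILO at neighbouring positions, but they did not overlap, and both also named another gene.

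Between WT PP and A5-KO PP there were 11 usable shared peaks on COL12A1, COL1A1, FN1, ITGB6 and ITGB8, with a median difference of 0.05. 2 were at least 1 higher in A5-KO PP and 1 at least 1 lower, beside 16.1% higher and 18.3% lower of 2543 shared peaks of all genes. The COL1A1 3′UTR peak, the site present in all 6 lists, read 3.65 ± 0.11 in WT PP (272 input, 607 IP reads) and 4.87 ± 0.13 in A5-KO PP (160 input, 716 IP reads), a difference of 1.22 ± 0.16. The COL12A1 coding peak, chr6:75183220-75183444, read 5.47 ± 0.40 on 14 input reads and 3.30 ± 0.18 on 106, a difference of -2.17 ± 0.44. In its 3′UTR, at chr2:160101292-160101641, ITGB6 had a peak that read 7.78 and 9.35, but on 9 and 4 input reads, so the difference of 1.56 ± 0.84 is poorly set. ITGB8 had 4 usable peaks: its 3′UTR peak read 6.11 ± 0.14 and 5.63 ± 0.12, its coding peak 3.51 ± 0.12 and 3.08 ± 0.14, and its 5′UTR peaks 3.79 ± 0.11 and 3.60 ± 0.11, and 2.40 ± 0.16 and 3.09 ± 0.34. FN1, which had by far the most reads, read 2.62 ± 0.02 in WT PP (14015 input reads) and 2.73 ± 0.02 in A5-KO PP (11340) at chr2:215371939-215372038. Its other shared peak, chr2:215372364-215372413, was 100 nt long in WT PP and 50 nt in A5-KO PP. It read 2.64 ± 0.01 (24364 input reads) and 3.11 ± 0.02 (14970), a difference of 0.46 ± 0.02. COL12A1 and this ITGB6 peak are named for passing 1 in size, after their values were seen. A further ITGB6 3′UTR peak, chr2:160099742-160099941, differed by -0.77 ± 0.36. Of the 11 differences, 3 higher ones (COL1A1 and both of FN1) and 4 lower ones (COL12A1, this ITGB6 peak, and the 3′UTR and coding peaks of ITGB8) were over 2 times their counting error, but whether they exceed the spread between libraries was not tested. Most of these pairs also differed in width. With the raw ratio and 1 offset for each list the median difference was 0.48, and the cause of the move was not tested.

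The other genes of matrix making and adhesion were counted in the same way, beside 60.2%, 57.0%, 52.2%, 57.7%, 62.8% and 69.7% of all coding genes. Of 23 genes of collagen making (such as the prolyl hydroxylases P4HA1 and P4HA2, the chaperone SERPINH1 and the lysyl oxidases), 18, 17, 16, 20, 19 and 21 had a peak over the 6 lists. Of 11 genes of matrix breakdown (metalloproteinases, ADAM proteases and their inhibitors), 8, 8, 6, 8, 7 and 9 had one. Of 20 genes of the adhesion complex that couples integrins to actin, 16, 16, 15, 18, 18 and 17 had one, and there the A5-KO PP count was 1 below that of WT PP.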

How the data were processed

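m6A-seq had been run on 24 libraries, 2 IP and 2 input for each of 6 populations. Per the study's methods, the authors used fastp for trimming and HISAT2 for alignment (GRCh38), called peaks with exomePeak2 and searched motifs with HOMER. The deposited lists, 1 for each population, give pooled read counts for IP and input, a log2 fold change of IP over input and p-values with adjusted p-values. The methods name limits of 1.5 for IP over input and of 1e-05 for p, but the rows reach an adjusted p of up to 0.05, and the share that meets the limit on p is 54.1% (A5-KO PP) to 94.3% (hILO), so the main counts hold peaks that miss it. Depth per library is unknown; the reads inside peaks of a list sum to between 6987612 and 28463998 for input and between 30723097 and 79822815 for IP.

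Genes were named by GENCODE 44, and peak spans were reduced to the exons of the genes listed with them. Symbols chose the 87 genes. These genes and the other gene lists were chosen with earlier results of these data known. Rows were called in order where coordinates and numbered names kept 1 offset for at least 300 peaks, and reads and log2 enrichment were used only there, which replaces the planned use of all rows. The named genes were a list fixed by symbol, the genes with most peaks, genes with a peak in 1 stage and the largest enrichment differences with at least 50 input reads. That minimum was also meant for genes of 1 stage but was not applied to them, since outside the runs reads may belong to another peak. The values of 1 gene named by this rule are not reported here. Shares carry Wilson 95% intervals, and errors of log2 values come from the counts with 0.5 added; both cover counting only. The sources used here do not say if the authors pooled counts by adding or by averaging the 2 libraries; if they averaged, the true counting errors are smaller than printed. No test was made, because the lists used here give pooled values and single libraries were not analysed. Motifs and sequences were read from GRCh38. Functions were tested on simulated data. Python 3.11.15, NumPy 2.4.6, pandas 2.3.3, SciPy 1.17.1, matplotlib 3.10.9 and samtools 1.23.1 were used.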

Additional observations from a re-analysis of the deposited data

How the results depend on the processing

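Of 88 values recomputed under another setting, 68 stayed within the limits set (1.5 times for a count, the Wilson interval for a share or ratio, the median counting error for an enrichment difference) and 20 did not. Filters on reads use the deposited rows, whose reads outside the ordered runs may belong to another peak, and the cause of the moves was not tested. With a p below 1e-05, the limit named in the study's methods, the peak counts of PP, WT PP and A5-KO PP were 96, 90 and 153. With at least 50 input reads, those of hPSC, WT PP and A5-KO PP were 85, 96 and 142, the multi-exon share of A5-KO PP was 43.0%, the GGAC ratio of PP was 1.68, and the share of A5-KO PP peaks found in WT PP was 39.4%. A reciprocal overlap over 50% gave 21.2% for PP with DE, 28.9% for hILO with PP and 22.0% for A5-KO PP with WT PP, and any overlap gave 51.6% for hILO with PP. Any overlap with the coding sequence gave 54.5% in hPSC. With DRACH in place of GGAC the ratios of hPSC and PP were 1.24 and 1.19. With the raw IP to input ratio and 1 offset for each list, the median enrichment difference was 0.14 from hPSC to DE, -0.48 from DE to PP (1 peak) and 0.48 from WT PP to A5-KO PP. With all deposited rows it was 0.49 from WT PP to A5-KO PP over 88 peaks. The last setting, and the one without peaks that list another gene, were chosen after seeing the data; the latter changed no count of peaks or genes by over 1.5 times. The count of genes with a peak stayed within 1.5 times in every list under all 3 filters. No paired analysis was possible because the peak lists give pooled reads, and leaving out a library could not be run either; values of single libraries were not analysed here. Depth limits what the lists show: a gene without a peak may only be too weakly expressed, while 24.6% of the rows of A5-KO PP and 11.5% of those of WT PP are listed with no input read.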

Other observations

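The order of the rows and the read counts were compared. Over identical peaks of 2 lists, input reads ranked alike when both rows lay in an ordered run, with Spearman's rho of 0.795 for DE and PP (233 peaks), 0.860 for PP and hILO (222) and 0.920 for WT PP and A5-KO PP (317). Outside the runs rho was 0.110 (1849 peaks), 0.133 (1896) and 0.252 (3306). These peaks share libraries within each list and are not independent. Exonic length and input reads of a peak had a rho of between 0.354 and 0.481 inside the runs of the 6 lists and of between -0.0018 and 0.027 outside. A further check did not part the rows. Among peaks with many input reads, the share of G and C was ranked against deposited log2 enrichment minus the raw log2 ratio of IP to input. There rho was between -0.840 and -0.720 inside the runs and between -0.829 and -0.745 outside. Why this check differed from the others was not tested. Because of the checks on input reads, the values of COL27A1, COL18A1, COL3A1 and COL4A1, all outside the runs of every list, are not given.

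ITGA1, a collagen receptor chain, carries a pair of 75-nt peaks whose reads nearly coincide. At chr5:52788316-52788390 and chr5:52824314-52824388 DE lists 1943 input and 4751 IP reads for both, and hPSC lists 1144 and 1137 input reads and 9333 and 9286 IP reads. All of these rows also name 2 further genes, and whether the same fragments were counted in both places was not tested.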
